A study of Mus musculus with 9 samples.

Results

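The 10 genes described here encode proteins of the nuclear pore: Nup107, Pom121, Nup133, Nup155, Nup160, Nup62, Nup93, Nup98, Nup50 and Nup54. Every probe set whose only annotated gene symbol is 1 of these was taken, which gave 22 probe sets. They are 10 of the 12393 genes with a probe set of their own on the array. Nup107 and Pom121 head the set because their differences between toxin-treated and saline mice were already known, and the other genes were chosen with those results in view. Values against Control are therefore given as a description with no test. The difference between the toxins had no part in the choice and was tested. That test uses the same METH and MPTP arrays as the differences from Control, so it is not independent of the choice.

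The RNA came from the left and right striatum of male C57BL/6J mice aged 56 days, with 1 array per mouse. Of the 9 mice, 3 were injected with methamphetamine (METH), 3 with MPTP and 3 with saline (Control). METH releases dopamine from axon terminals and at high doses injures these terminals, and MPTP is turned by glial cells into a poison that the dopamine transporter carries into neurons. Both injure dopamine axons, whose cell bodies lie outside the striatum, so the arrays measured the tissue around those axons. The labels give no dose, schedule or time of dissection.

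The nuclear pore is the channel through which RNA leaves the nucleus and proteins enter and leave it. A Y-shaped complex with Nup107, Nup133 and Nup160 forms its outer rings, and Nup155 and Nup93 belong to the inner ring. Pom121 spans the nuclear membrane and anchors the pore. Nup62, Nup54 and Nup98 carry the phenylalanine-glycine repeats that fill the channel, and Nup50 sits at the nuclear basket. In cells that no longer divide, such as neurons, proteins of the pore scaffold are known to be replaced very slowly.

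Each probe set is made of several short oligonucleotides, and their brightness gives 1 signal, here on a linear intensity scale. Array medians lay between 1110.5 and 1233, and Spearman correlations between arrays were 0.97 to 0.985. Dim probe sets, with a mean log2 value below the 40th percentile over the array (741.3 in signal), did not enter the fits, and each gene was represented by its brightest probe set. All 10 genes passed, through 16 of their 22 probe sets, as did 7964 genes in all. Markers of striatal spiny neurons, the main cells of this tissue, were bright: 7 of the 12 listed had a probe set of their own, all 7 passed, and their summed signal was 172070 to 183870 in METH, 155770 to 182510 in MPTP and 175160 to 195920 in Control arrays. Gfap, the intermediate filament gene of astrocytes, was the 1 gene past an adjusted p of 0.05 in limma in each toxin against Control, so that 0.0126% of the genes tested were called in each. It was higher in METH than in Control by 1.13 ± 0.13 log2 units (adjusted p = 0.0404) and higher in MPTP than in Control by 1.14 ± 0.13 (adjusted p = 0.0382). The Gfap call after METH was lost in 4 of 12 other settings and without any 1 of 6 arrays, and after MPTP in 5 of 12 and without any 1 of 8 arrays. Here and below, ± gives the SE of a log2 difference, from the limma fit, and the SD of a signal over 3 arrays.

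Nup107, which lies at the centre of the stem of the Y complex, was lower after both toxins. Its probe set 1426751_s_at gave signals of 826, 803 and 1063 on METH arrays 1, 2 and 3, of 956, 760 and 929 on MPTP arrays 1, 2 and 3, and of 1313, 1760 and 1496 on Control arrays 1, 2 and 3. All 6 toxin arrays lay below all 3 Control arrays, and the METH and MPTP arrays overlapped. Mean signals were 897 ± 144 in METH, 882 ± 106 in MPTP and 1523 ± 225 in Control striata (n = 3 each). The log2 difference was -0.77 ± 0.15 for METH, 1.70-fold lower, and -0.79 ± 0.15 for MPTP, 1.72-fold lower. Both differences share the same Control arrays. Of all genes tested, 0.1% had a log2 difference at or below that of Nup107 after METH, and 0.0502% after MPTP. Since Nup107 was chosen on these same comparisons, a rank near the end follows from the choice, and nothing is read from it. In bulk tissue, fewer cells of a type and less RNA per cell cannot be told apart. This is the only probe set of Nup107, so no second one could be set against it, and its _s_at suffix marks probes that can match more than 1 transcript.

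Pom121, the membrane anchor, gave the highest log2 differences among the brightest probe sets of the 10 genes. The probe set 1427886_at had signals of 12179, 11966 and 13610 on METH arrays 1, 2 and 3. On MPTP arrays 1, 2 and 3 it had 15118, 3413 and 10044, and on Control arrays 1, 2 and 3 it had 4030, 4482 and 3944. All METH arrays and MPTP arrays 1 and 3 lay above every Control array, whereas MPTP 2 had the lowest signal of all 9. Means were 12585 ± 894 in METH, 9525 ± 5870 in MPTP and 4152 ± 289 in Control (n = 3 each). The log2 difference from Control was 1.60 ± 0.42 for METH, 3.03-fold higher, and 0.95 ± 0.42 for MPTP, 1.94-fold higher. The SE is shared by all groups of the fit and holds the wide spread of the MPTP arrays. The MPTP difference was 1.57 without MPTP 2, 0.50 without MPTP 1 and 0.79 without MPTP 3.

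The other Pom121 probe set, 1420004_s_at, whose suffix also marks probes that can match more than 1 transcript, did not show this step. It had 2392, 1806 and 1993 on METH arrays 1, 2 and 3, 2187, 2204 and 1923 on MPTP arrays, and 1659, 2283 and 1603 on Control arrays. The groups overlapped, and the log2 differences were 0.17 for METH and 0.20 for MPTP, with an SE of 0.16 each in a fit over probe sets. MPTP 2, at 2204, lay with the other MPTP arrays here. The 2 probe sets thus agreed in sign and differed in size by 1.43 log2 units after METH and by 0.75 after MPTP. With the mean of both in place of the brighter one, the Pom121 difference was 0.88 after METH and 0.58 after MPTP.

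**Figure D1:**
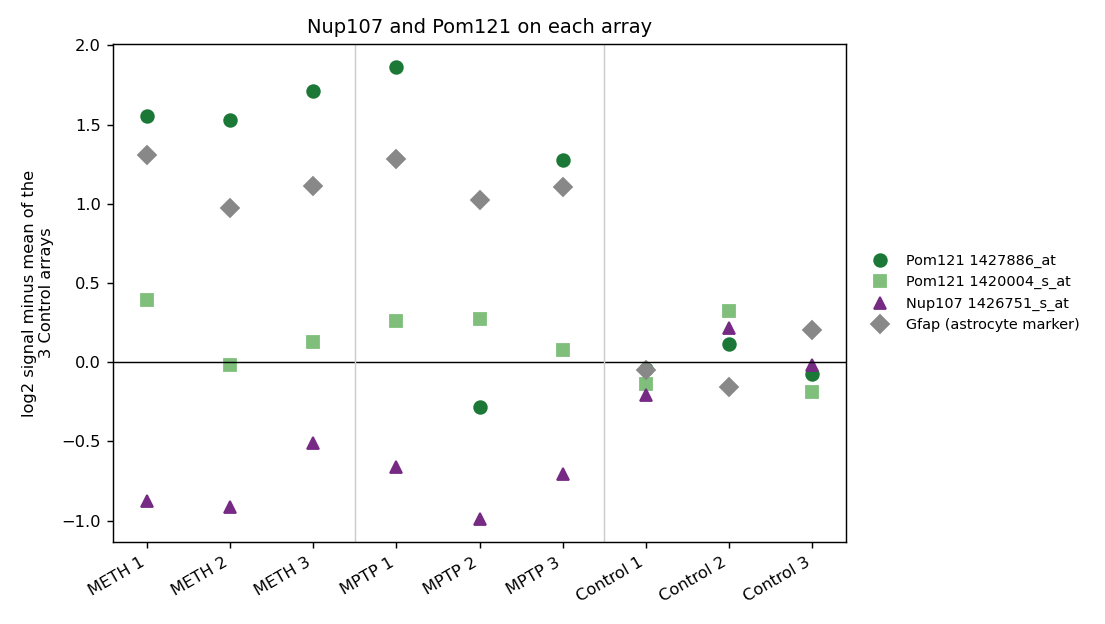
Log2 signal on each array, less the mean of the 3 Control arrays, for both Pom121 probe sets, for Nup107 and for Gfap. Nup107 lies below 0 on all 6 toxin arrays, whereas Pom121 1427886_at is high on all toxin arrays but MPTP 2, where its signal is 3413, and Gfap stays high on MPTP 2.

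In Gfap and Nup107, MPTP 2 lay apart from the Control arrays. Its Gfap signal was 11350, among the other METH and MPTP arrays (10957 to 13823) and above the Control arrays (5020 to 6436). Its Nup107 signal, 760, was the lowest of the 9. The 3 choroid plexus and ependyma markers that passed the filter, of 9 listed, mark ventricular tissue. They summed to 10514 to 53228 in METH, 5258 to 35933 in MPTP and 14220 to 67496 in Control arrays. The lowest sum was on MPTP 2, where Ttr had 2853, Folr1 890 and Foxj1 1515. In Control arrays these genes had 11543 to 65370, 869 to 1187 and 938 to 1806. Sums were also low on MPTP 3 (9401) and METH 3 (10514), where Pom121 1427886_at had 10044 and 13610. The part of these markers in the Pom121 values was not tested.

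Summed signals of microglia markers, and of astrocyte markers through Gfap, were higher on all toxin arrays than on all Control arrays. The 8 astrocyte markers summed to 93996 to 100930 in METH, 95527 to 103900 in MPTP and 87052 to 91974 in Control arrays; 7 of 8 were above 0 in log2 difference after METH and 6 after MPTP, and Gfap was the 1 that passed the test in each. Without Gfap, left out after its values were seen, the other 7 summed to 83038 to 88857 in METH, 84177 to 90306 in MPTP and 82031 to 85538 in Control arrays, and the groups overlapped. The 11 microglia markers that passed the filter, of 12, summed to 62205 to 64213 in METH, 59362 to 63743 in MPTP and 51978 to 59161 in Control; 10 and 11 of the 11 were above 0 after METH and MPTP, and 0 passed the test. Of 9 blood markers, 6 were on the array and Hbb-b2, a haemoglobin gene, was the 1 that passed the filter. Its signals were 880 to 1068 in METH, 795 to 1173 in MPTP and 423 to 776 in Control. The Control mean, 631, lay below the filter signal of 741.3, so Hbb-b2 passed through the toxin arrays. The other blood markers on the array were dim, and nothing is read from Hbb-b2 about blood. The part of these cells in the Nup107 and Pom121 values was not tested. No detection calls were used, and no marker was listed at a signal of 0.

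The promoters of Nup107 and Pom121 are shown because these are the members whose levels differed most. They come from RefSeq (GRCm38.p6), which held a promoter for 10 of 10 members, and are written 5′ to 3′ on the minus strand. The Nup107 stretch, chr10:117792737-117792955, starts 250 bases before the annotated start and leaves out the last 31 bases before it, which lie inside the annotated span of the gene. The Pom121 stretch, chr5:135394547-135394796, is the 250 bases before the start, and the annotated span of Pom121 reaches further upstream. Capitals mark matches to any of 6 motifs, searched on both strands.
Nup107: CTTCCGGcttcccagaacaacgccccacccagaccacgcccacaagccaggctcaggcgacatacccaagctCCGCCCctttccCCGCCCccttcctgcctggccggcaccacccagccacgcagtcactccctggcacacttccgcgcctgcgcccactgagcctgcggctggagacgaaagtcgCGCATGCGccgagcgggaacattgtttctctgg
Pom121: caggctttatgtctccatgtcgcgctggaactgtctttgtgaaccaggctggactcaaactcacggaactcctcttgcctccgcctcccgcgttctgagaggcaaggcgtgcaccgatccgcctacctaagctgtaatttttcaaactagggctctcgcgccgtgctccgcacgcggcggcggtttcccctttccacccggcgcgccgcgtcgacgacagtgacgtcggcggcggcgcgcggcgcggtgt

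The Nup107 stretch held 4 matches, none overlapping another: an ETS core (CCGGAAG) that begins 250 bases before the start, GC boxes (GGGCGG) at 178 and 166 bases, and an NRF1 core (CGCATGCG) at 64 bases. The Pom121 stretch held 0, and all of it lies inside the annotated span of the gene, whereas such bases were left out for Nup107. Each stretch is from the first window listed for its gene. The stretches are thus unlike, and their counts of matches are not compared. Among the members, counting a gene with several starts once, NRF1 cores stood before Nup107, Nup62 and Nup50, 3 of 10, and were found in 1.55% of the 32851 promoter windows of the same 250 bases. ETS cores stood before Nup107, Nup155 and Nup54 (6.91% of all windows) and GC boxes before 7 of 10 (32.7%). CCAAT stood before 5 (33.8%), TATAAA before 2 (12.4%) and the cyclic AMP response element TGACGTCA before Nup133 (1.55%). A match is a description of the letters only.

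The partners of Nup107 in the Y complex had smaller log2 differences, on either side of 0. Nup133, which joins Nup107 at the end of the stem, had 1596, 1391 and 1373 in METH, 1538, 1290 and 1449 in MPTP and 1304, 1498 and 1276 in Control with its brightest probe set, 1423787_at. The groups overlapped, and the log2 differences were 0.10 ± 0.11 for METH and 0.07 ± 0.11 for MPTP. All 4 Nup133 probe sets lay above 0 after both toxins. The largest values, 0.96 and 1.10, came from 1423788_at, a probe set below the filter whose signals ran from 236 to 554 in METH, 256 to 413 in MPTP and 95.1 to 225 in Control. At that brightness a given difference in signal makes a large one on the log2 scale.

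Nup160, which forms an arm of the Y with Nup37, had 1403, 1117 and 1365 in METH, 1035, 1325 and 1556 in MPTP and 1299, 1503 and 1264 in Control with its only probe set. Its log2 differences were -0.07 ± 0.16 for METH and -0.07 ± 0.16 for MPTP. Nup85, a subunit of the other arm that was not among the 10, lay on the other side of 0 from Nup107, with 0.41 ± 0.14 for METH (limma adjusted p = 0.543) and 0.32 ± 0.14 for MPTP (adjusted p = 0.873). Its METH signals were 2352 to 2712 and its MPTP signals 2127 to 2685, against 1589 to 2229 in Control. Seh1l, Nup43, Nup37 and Sec13, which also belong to the Y complex, had log2 differences of 0.11 ± 0.12, 0.27 ± 0.17, -0.05 ± 0.11 and -0.10 ± 0.12 for METH. For MPTP they had 0.17 ± 0.12, 0.18 ± 0.17, -0.21 ± 0.11 and -0.21 ± 0.12. Ahctf1, which brings the complex to chromatin, had 0.21 ± 0.16 and 0.29 ± 0.16. None of these passed the test.

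The inner ring gene Nup155 was slightly higher after both toxins with its brighter probe set, 1449200_at. It had 1821, 1819 and 1886 in METH, 1742, 1921 and 2336 in MPTP and 1687, 1580 and 1625 in Control. No toxin array overlapped the Control arrays, and the log2 differences were 0.18 ± 0.11 for METH and 0.28 ± 0.11 for MPTP. Without MPTP 3 the MPTP value was 0.17. The dimmer probe set 1418727_at, which did not pass the filter, had the opposite sign, -0.11 and -0.08. Nup93, which holds the inner ring together, had 2913, 3228 and 2064 in METH, 3354, 2625 and 2775 in MPTP and 2222, 2683 and 2596 in Control. These overlapped, with log2 differences of 0.11 ± 0.17 and 0.22 ± 0.17.

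**Figure D2:**
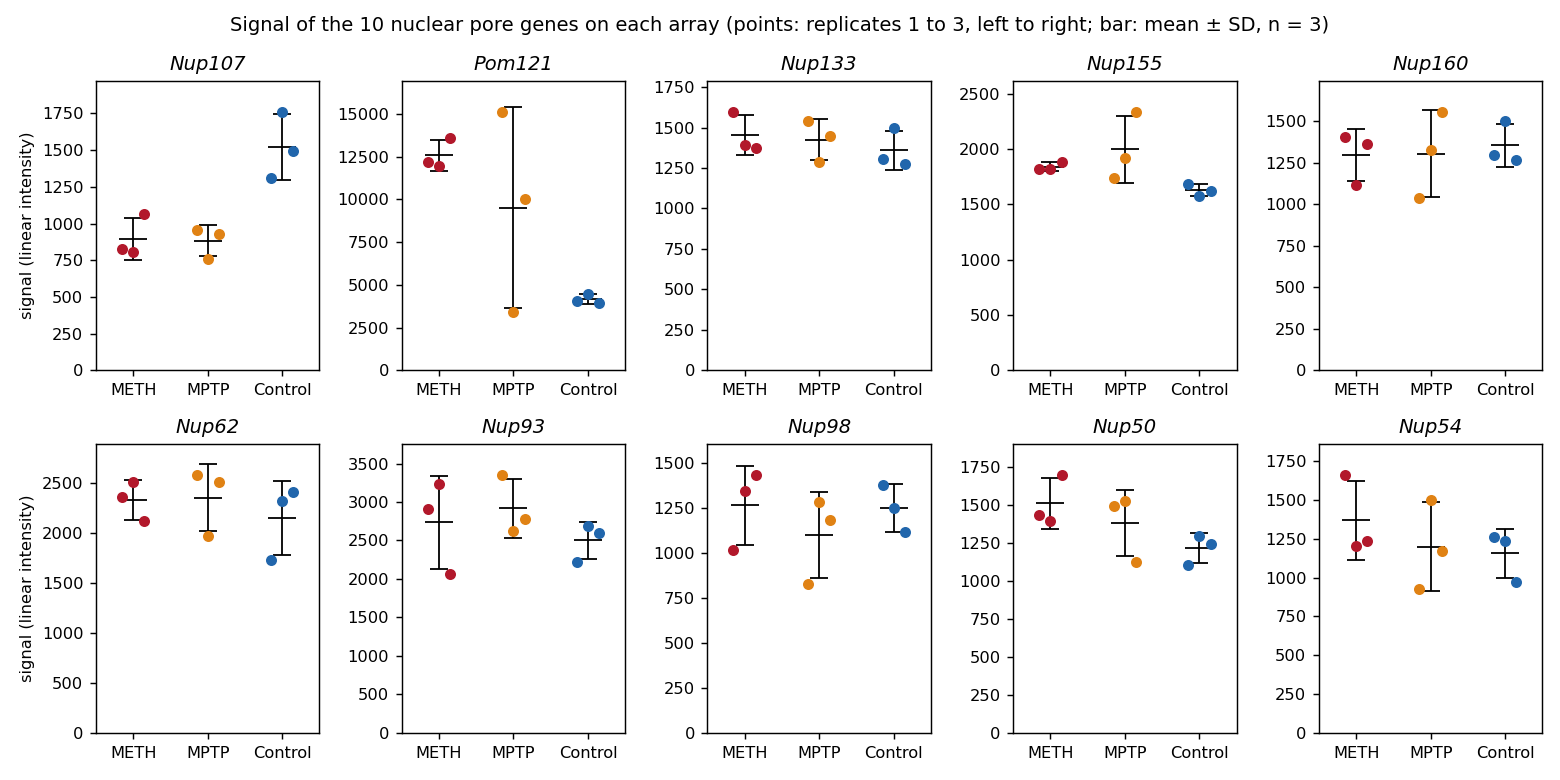
Signal of the brightest probe set of each of the 10 genes in METH, MPTP and Control striata (points are arrays, bars the mean ± SD of 3). Nup107 is lower on all 6 toxin arrays, Pom121 is higher on all but MPTP 2, and the other 8 genes differ by much less.

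Among the channel genes, Nup62 had 4 probe sets. Its brightest, 1415926_at, had 2361, 2517 and 2122 in METH, 2587, 1969 and 2519 in MPTP and 1730, 2320 and 2413 in Control, and log2 differences of 0.13 ± 0.15 and 0.14 ± 0.15. The other Nup62 probe sets lay between -0.09 and -0.01 after METH and between -0.26 and 0.13 after MPTP. Every one of them overlapped between toxin and Control arrays except 1438917_x_at after MPTP, with 1952 to 2218 in MPTP against 1850 to 1915 in Control. Nup54, which pairs with Nup62 in the channel, had 1662, 1204 and 1237 in METH, 927, 1499 and 1171 in MPTP and 1260, 1235 and 972 in Control, with log2 differences of 0.24 ± 0.19 and 0.04 ± 0.19. Its dim probe sets had opposite signs, 0.32 for 1438951_x_at and -0.82 for 1432539_a_at after METH.

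Nup98, whose gene also encodes the Y complex subunit Nup96, had 1016, 1339 and 1432 in METH, 826, 1279 and 1183 in MPTP and 1378, 1249 and 1115 in Control. Its groups overlapped, with log2 differences of 0.01 ± 0.18 for METH and -0.21 ± 0.18 for MPTP. The MPTP value was -0.01 without MPTP 1.

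Nup50, a basket protein that helps release import cargo, had 3 probe sets above the filter that did not agree. The brightest on average, 1450722_at, had 1439, 1396 and 1702 in METH, 1493, 1527 and 1129 in MPTP and 1108, 1301 and 1248 in Control. Its METH arrays lay above the Control arrays, by 0.31 ± 0.14 log2 units, and its MPTP arrays overlapped them, with 0.17 ± 0.14. The probe set 1428328_at had -0.73 ± 0.42 after METH in the fit over probe sets, which rested on 1 array: METH 2 had a signal of 393, against 1578 and 1453 on METH arrays 1 and 3 and 1475 to 1734 in Control. Without METH 2 that difference was -0.08. After MPTP the same probe set had 1453, 1288 and 1375, all below the Control arrays, and a log2 difference of -0.23, opposite in sign to that of the brightest probe set. The third, 1422719_s_at, had 0.18 after METH and -0.01 after MPTP, and its groups overlapped. On METH 2 the other Nup50 probe sets had 1396 and 1316, within or above the range of the remaining arrays.

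**Figure D3:**
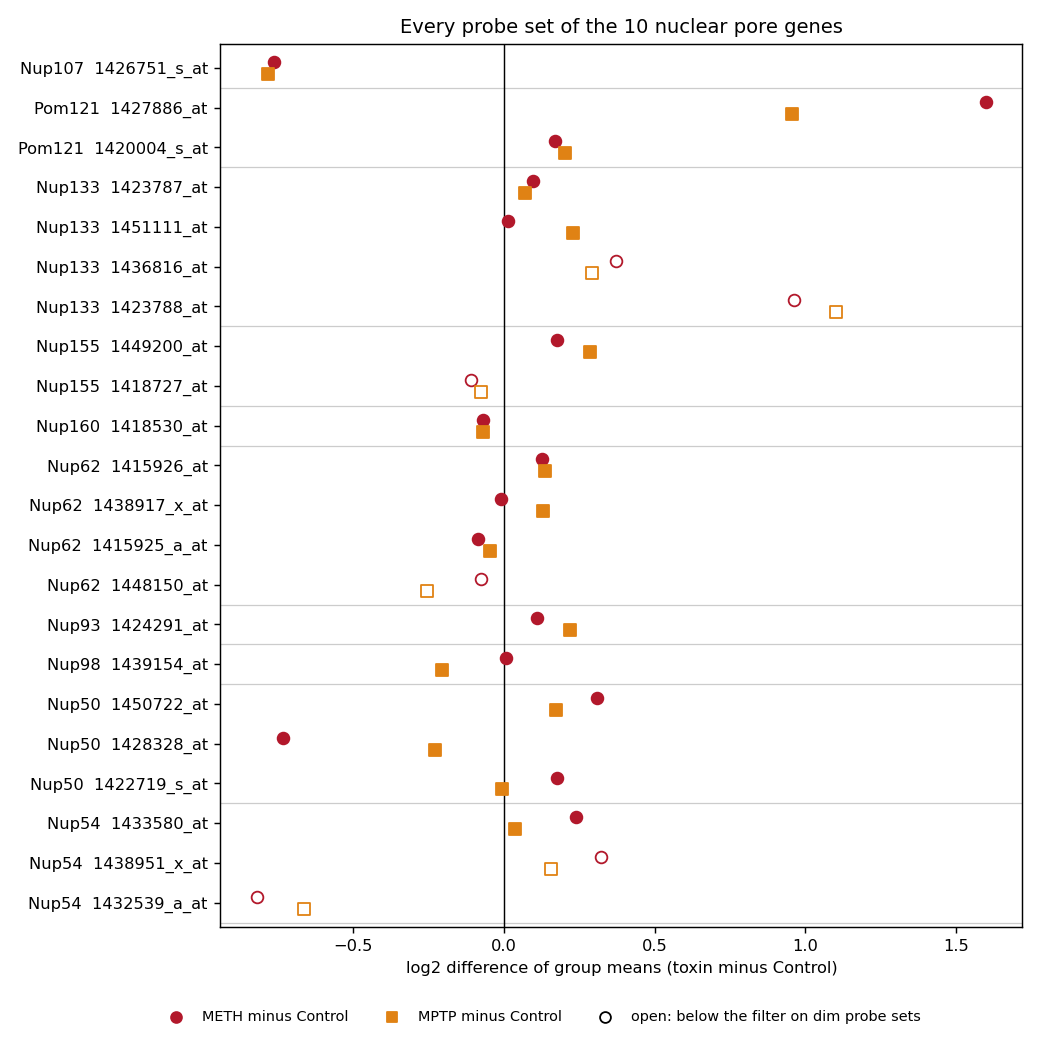
Log2 difference of METH (circles) and MPTP (squares) from Control for each of the 22 probe sets, open where the probe set fell below the filter. The Pom121 probe sets differ in size, and the probe sets of Nup155, Nup62, Nup50 and Nup54 lie on both sides of 0.

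Of the 6 members with several probe sets, Pom121 and Nup133 had the same sign in all of them after both toxins, 2 of 6. Nup155, Nup62, Nup50 and Nup54 had both signs. Over the 10 members the median log2 difference was 0.12 after METH, with 8 of 10 above 0, and 0.10 after MPTP, with 7 of 10 above 0. The median over all genes tested was 0.00 and 0.01 log2 units, with 50.3% and 51.8% above 0. Without Nup107 and Pom121, the other 8 members ranged from -0.07 to 0.31 after METH and from -0.21 to 0.28 after MPTP. After METH, 3 of 10 members had arrays all above Control (Pom121, Nup155 and Nup50), where 6.48% of all genes did, and 1 (Nup107) had all below, where 7.19% did. After MPTP, 1 (Nup155) had all above, where 6.13% did, and 1 (Nup107) all below, where 5.14% did. Since the set was chosen on these comparisons, nothing is read from these counts.

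METH and MPTP striata were then compared with each other. None of the 10 members passed the test in limma (0 of 10 at an adjusted p of 0.05, and 0 of 10 at an unadjusted p of 0.05). Of all 7964 genes, 0 passed (0%) and 227 had an unadjusted p under 0.05 (2.85%). Nup107 had a log2 difference, METH minus MPTP, of 0.02 ± 0.15, with a 95% interval of -0.32 to 0.36 (adjusted p = 0.999, limma). Pom121 had 0.65 ± 0.42, with an interval of -0.28 to 1.57 (adjusted p = 0.999, limma), and its difference was 0.03 without MPTP 2, 1.10 without MPTP 1 and 0.81 without MPTP 3. The other 8 members ranged from -0.11 to 0.21, and METH and MPTP arrays overlapped for all 10 (0 of 10 higher and 0 of 10 lower, where 3.39% and 3.7% of all genes did not overlap). These intervals leave room for differences between the toxins as large as their bounds.

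Among the other nucleoporins, 16 of the 17 on the array were tested. Against Control, 0 passed in either direction after METH or MPTP (limma). After each toxin 3 of these 16 had an unadjusted p below 0.05. The share over all genes was 8.25% after METH and 5.49% after MPTP. The median log2 difference of the 16 was 0.03 after METH, with 8 above and 8 below 0, and -0.07 after MPTP, with 6 above and 10 below. Ranbp2, the large protein of the cytoplasmic filaments, had 9213, 8920 and 8985 in METH, 9280, 8664 and 9378 in MPTP and 10674, 10103 and 10385 in Control. All 6 toxin arrays lay below the Control arrays, at log2 differences of -0.20 ± 0.08 (adjusted p = 0.545) and -0.19 ± 0.08 (adjusted p = 0.873). Aaas, which encodes the pore protein aladin, had -0.43 ± 0.17 (adjusted p = 0.545) and -0.40 ± 0.17 (adjusted p = 0.873). Its signals were 616 to 907 in METH, 677 to 855 in MPTP and 810 to 1119 in Control, and both toxins overlapped Control. The METH and MPTP means, 730 and 739, lay just below the filter signal of 741.3, so Aaas passed through its Control arrays. Ndc1, which like Pom121 spans the pore membrane, had 0.21 ± 0.15 and -0.16 ± 0.15, and Nup210, another membrane nucleoporin, had -0.01 ± 0.11 and -0.17 ± 0.11.

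For genes that work with the pore, 0 of the 68 tested in the 5 lists, the other nucleoporins included, passed in either comparison (limma, lowest adjusted p 0.49 for METH and 0.867 for MPTP). Log2 differences in these lists ran from -0.43 (Aaas) to 0.55 (Lmna) after METH and from -0.40 (Aaas) to 0.36 (Lmna) after MPTP. At an unadjusted p under 0.05 there were 6 of 68 after METH (8.82%, against 8.25% of all genes) and 5 after MPTP (7.35%, against 5.49%). The 22 transport receptors, which carry cargo through the channel, had medians of 0.03 and 0.06. Xpo5, the exporter of microRNA precursors, had 0.27 ± 0.14 after METH and 0.27 ± 0.14 after MPTP, Xpo7 had 0.25 ± 0.11 after METH, and Kpnb1, the main import receptor, had -0.20 ± 0.12 after MPTP. The 5 genes of the Ran cycle, which gives transport its direction, had medians of -0.11 and -0.06, with Ranbp1 at -0.12 ± 0.09 and Ranbp3 at -0.12 ± 0.11 after METH and Rangrf at -0.12 ± 0.13 and Ranbp1 at -0.07 ± 0.09 after MPTP.

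The 14 genes of mRNA export had medians of -0.02 after METH and 0.09 after MPTP. After METH the smallest p-values were those of Thoc2, at 0.23 ± 0.10, and Alyref, at -0.24 ± 0.11. After MPTP they were those of Ddx19b, a helicase that strips export factors at the pore, at 0.36 ± 0.12, and Thoc1, at -0.21 ± 0.10. The 11 genes of the nuclear lamina and envelope had medians of -0.01 and -0.02. Lmna, which encodes lamins A and C, had 1277, 1503 and 1209 in METH and 1046, 1030 and 1450 in MPTP, against 826, 846 and 1050 in Control. Its METH arrays lay above all Control arrays, at 0.55 ± 0.16 (adjusted p = 0.49), and its MPTP arrays overlapped them, at 0.36 ± 0.16 (adjusted p = 0.873). Tmpo had 0.17 ± 0.12 after METH and Banf1 -0.09 ± 0.09 after MPTP.

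**Figure D4:**
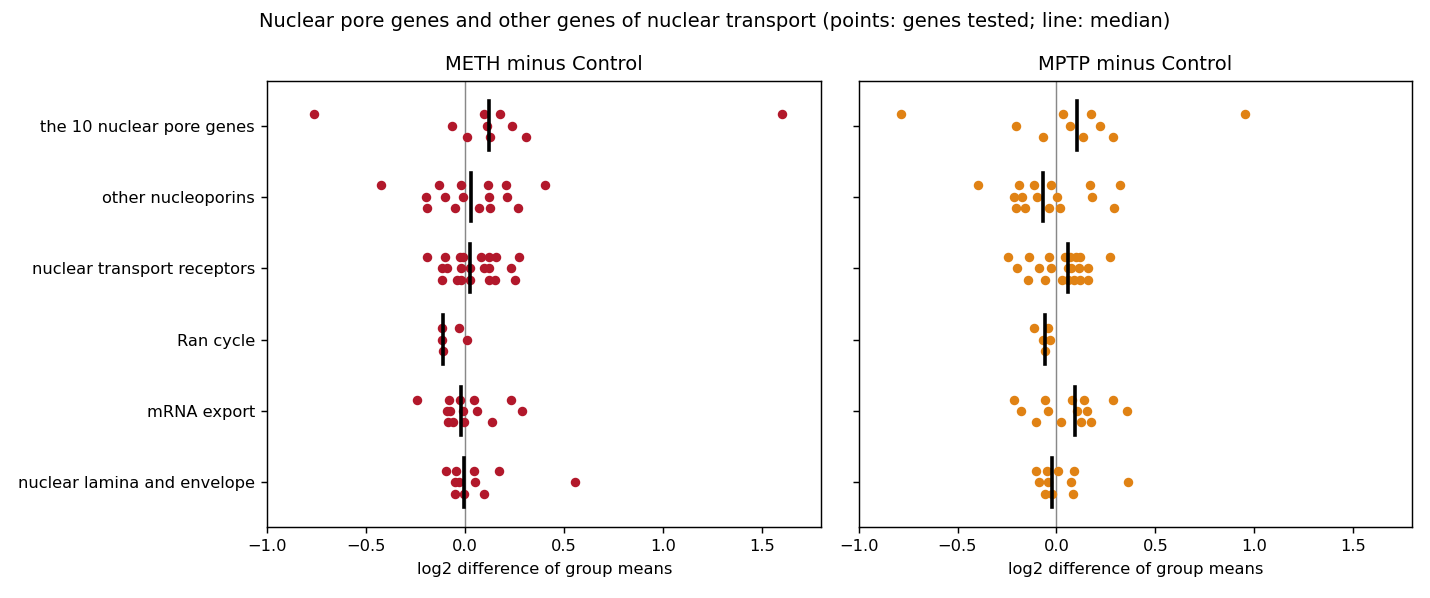
Log2 difference of METH (left) and MPTP (right) from Control for the 10 nuclear pore genes and for each tested gene of 5 lists of nuclear transport and the nuclear envelope, with the median as a line. Nup107 and Pom121 are the lowest and the highest points of both panels.

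The genes whose pattern over the 9 arrays was most like that of Nup107 were found by the root mean square difference of log2 values centred on each gene's mean. They were Dusp1, which encodes a phosphatase of MAP kinases (0.18 log2 units), Ryr1, a calcium release channel gene (0.22), Nfyb (0.23), Caln1 (0.23) and Lingo1 (0.24). The spread of Nup107 itself over the 9 arrays on the same measure was 0.40. Dusp1 had 5287, 4928 and 6268 in METH, 5051, 4794 and 4770 in MPTP and 6638, 7504 and 7505 in Control, with log2 differences of -0.40 ± 0.11 and -0.56 ± 0.11 (limma adjusted p = 0.479 and 0.454). Since these genes were picked by their likeness to Nup107, lower values on toxin arrays follow from the choice. By the same measure the genes nearest to Pom121, whose own spread was 0.84, were Gimap3 at 0.50, Exd2 at 0.52 and Gfap at 0.56. The measure is not scaled to a gene's own spread, so distances from Pom121 and from Nup107 cannot be compared directly. Exd2, an exonuclease gene, had 3844, 3847 and 3319 in METH, 4893, 2093 and 4857 in MPTP and 2198, 3084 and 2577 in Control. MPTP 2 was its lowest array, but Exd2 was picked by its pattern over all 9 arrays, MPTP 2 included. Gimap3, the nearest, had 552, 1301 and 1591 in METH, 1746, 531 and 919 in MPTP and 655, 477 and 451 in Control. Its signals on Control 2 and Control 3 lay below that on MPTP 2.

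The nearest genes on either side of Nup107 in RefSeq order that had a probe set of their own were Mdm2, the inhibitor of p53, and Rap1b, a small guanosine triphosphatase gene. Mdm2 had log2 differences of 0.20 ± 0.18 and 0.07 ± 0.18 with its brighter probe set and 0.25 ± 0.11 and 0.13 ± 0.11 with the other. The 3 Rap1b probe sets had -0.14 to 0.07 after METH and -0.08 to 0.07 after MPTP.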

How the data were processed

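The deposited intensity values are on a linear scale, 1 array per mouse, with the arrays scaled to a trimmed mean of 2500.6. The submitters' processing notes name RMA, without version or settings, and the values lack the log scale it usually gives, so how the authors summarised probe sets is unsettled. Of 22690 probe sets, 20380 had 1 gene symbol, 691 several and 1555 none, and 64 were array controls. Gene IDs of 20351 were found in RefSeq GRCm38.p6, and 0 symbols changed.

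Values were put on the log2 scale with no pseudocount and fitted with limma 3.58.1 in R 4.3.3 (1 mean per group, all 9 arrays, 6 residual and 3.93 prior degrees of freedom). Benjamini-Hochberg adjustment ran over 7964 genes, two-sided. The fit was tested on simulated data. P-values set a difference of group means against the spread between mice within groups. That spread is pooled over all 9 arrays and moderated over genes, so each comparison also depends on the third group. The number of arrays limits precision. An exact permutation test of 3 against 3 was not used.

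The members and lists were chosen with earlier results of these data known. Text names all members, the 2 genes of smallest p per list and toxin, the 5 and 3 genes most like Nup107 and Pom121, the neighbours of Nup107 and genes past the test; other Y complex and membrane nucleoporins were added after their values were seen. Marker lists for oligodendrocytes, vessels, blood and choroid plexus were also computed.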

Additional observations from a re-analysis of the deposited data

How the results depend on the processing

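Alternatives were quantile and cyclic loess normalization, arrays centred on their medians, no filter, a filter at the 60th percentile, a pseudocount of 64, fits of 2 groups, an intensity trend, array weights, the mean of all probe sets, _x_at and _s_at probe sets left out, the replicate number as a block, and each array left out. The single Nup107 probe set was not among those tested with the 60th percentile or without _s_at probe sets. Nup107 kept its sign in all others: -0.85 to -0.72 after METH (-0.89 to -0.66 with 1 array left out) and -0.84 to -0.74 after MPTP (-0.89 to -0.68). Pom121 was 0.88 after METH with the mean of its probe sets and 1.54 to 1.66 with 1 array left out. After MPTP it was 0.58 with that mean, 0.50 without MPTP 1 and 1.57 without MPTP 2. Nup107, Nup133, Nup155 and Pom121 kept their signs after both toxins, and each of the other 6 members turned sign in at least 1 setting.

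Genes called against Control, 1 after each toxin, were 0 with arrays centred on their medians and 0 with the replicate block, after METH and after MPTP. After MPTP the count was also 0 with array weights and with 2 groups, and 2 with no filter (Oas1b and Pramel25; after METH the 1 gene called with no filter was Oas1b). With METH and Control alone the 1 gene called was Pom121. Since Pom121 was chosen on its differences from Control, nothing is read from its calls here or below. With 1 array left out the counts were 0 to 2. After METH it was 2 without METH 2 (Gfap and Lor) and without MPTP 2 (Gfap and Pom121), 1 without Control 3 and 0 without any other array. After MPTP it was 2 without Control 3 (Gfap and Timp2) and 0 without any other. In METH against MPTP, and in the 5 lists, 0 genes were called in every alternative. Same-numbered arrays did not deviate together (correlations of -0.15 to 0.05 over 9 pairs, 0 of 9 arrays correlating best with their own number), so the numbers were not taken as pairs. With equal groups the replicate block cannot move a difference of means, only its error. Signal over background limits the 6 dim probe sets, and no detection calls were used.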

Other observations

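The genes beside Pom121 in RefSeq order, chosen after its values were seen, were Nsun5 and Hip1. Nsun5, which encodes an RNA methyltransferase, had a dim probe set below the filter, with 431, 332 and 471 in METH, 463, 268 and 522 in MPTP and 106, 484 and 424 in Control, which overlapped, with log2 differences of 0.54 and 0.52. Hip1, a gene of clathrin-coated vesicles, had log2 differences of -0.03 ± 0.12 after METH and -0.09 ± 0.12 after MPTP with its brightest probe set, and its probe sets ranged from -0.42 to 0.14 after METH and from -0.37 to 0.11 after MPTP. On MPTP 2 the brightest Hip1 probe set had 2259, against 2152 and 2332 on MPTP arrays 1 and 3.

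Oligodendrocyte markers, of which 8 of 9 passed the filter, summed to 162140 to 169350 in METH, 165940 to 183600 in MPTP and 147090 to 169290 in Control arrays. The 9 vessel markers that passed, of 10, summed to 28451 to 30483 in METH, 27442 to 30674 in MPTP and 30278 to 32245 in Control. In both lists the arrays of each toxin overlapped those of Control.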
